A study of Homo sapiens with 4 samples.

Results

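The metallothionein cluster is a run of small genes on the long arm of chromosome 16, and the RNAPII-linked DNA loops that touch it are described here. Its 10 members were MT4, MT3, MT2A, MT1E, MT1M, MT1A, MT1F, MT1G, MT1H and MT1X, in the order of the chromosome. They spanned 119.124 kb (GRCh38, chr16:56565073-56684196). A loop was taken as a member when at least 1 of its anchors overlapped the body of 1 of these genes, as annotated in GENCODE 44, or 50 kb on either side. The resulting window ran over 219.124 kb (chr16:56515073-56734196). It held 16 of the 66417 loops listed for mock-treated cells and 8 of the 18778 loops listed for PDS-treated cells. MT1B, a further protein-coding metallothionein gene between MT1A and MT1F, was not among the 10 members, but loops at its promoter fell in the window and are given under its name.

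POLR2A HiChIP-seq joins proximity ligation in fixed nuclei to immunoprecipitation of RNAPII through its POLR2A subunit, so that each paired-end tag (PET) links a pair of DNA fragments that lay close together in RNAPII-bound chromatin. The cells were HepG2, a line from a human hepatocellular carcinoma. They received sterilized water (mock) or 20 µM pyridostatin (PDS), a small molecule that binds guanine quadruplex (G4) structures, for 24 h before cross-linking. Each condition had 2 replicate libraries, and the deposited data are 1 combined loop list per condition.

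Metallothioneins are short, cysteine-rich proteins that bind zinc, copper and cadmium and buffer the free concentration of these metals in the cell. MT2A and the MT1 genes are used in many tissues and are strongly inducible in liver, whereas MT3 is known mainly from brain and MT4 from stratified epithelia. Their induction by metals runs through MTF1, a zinc finger transcription factor that senses zinc and binds short metal response elements (MREs) in their promoters.

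To show what lies at the starts of these genes, the 250 bases upstream of the start are printed for the 4 members found in the RefSeq promoter table (GRCh38.p14), namely MT4, MT2A, MT1H and MT1X. MT1A, MT1E, MT1F, MT1G, MT1M and MT3 were not in that table. Each sequence runs 5′ to 3′ on the strand of the gene, and capitals mark each match to the MRE core, searched as TGCACNC and TGCGCNC on both strands.
MT4 (chr16:56564823-56565072, + strand): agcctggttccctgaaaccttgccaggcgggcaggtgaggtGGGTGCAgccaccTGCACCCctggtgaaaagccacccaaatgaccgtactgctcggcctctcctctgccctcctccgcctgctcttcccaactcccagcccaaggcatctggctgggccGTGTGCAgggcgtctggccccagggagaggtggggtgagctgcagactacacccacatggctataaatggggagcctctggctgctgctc
MT2A (chr16:56608334-56608583, + strand): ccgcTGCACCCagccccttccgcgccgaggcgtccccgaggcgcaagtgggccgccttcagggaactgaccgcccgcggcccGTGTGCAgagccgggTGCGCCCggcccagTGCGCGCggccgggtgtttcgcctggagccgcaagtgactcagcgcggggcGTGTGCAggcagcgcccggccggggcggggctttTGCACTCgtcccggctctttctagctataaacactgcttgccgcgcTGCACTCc
MT1H (chr16:56669564-56669813, + strand): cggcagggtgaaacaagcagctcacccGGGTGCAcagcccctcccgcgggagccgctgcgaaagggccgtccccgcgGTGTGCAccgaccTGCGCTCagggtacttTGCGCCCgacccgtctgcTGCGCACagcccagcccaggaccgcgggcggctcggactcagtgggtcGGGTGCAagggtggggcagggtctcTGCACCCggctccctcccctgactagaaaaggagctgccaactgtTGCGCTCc
MT1X (chr16:56682220-56682469, + strand): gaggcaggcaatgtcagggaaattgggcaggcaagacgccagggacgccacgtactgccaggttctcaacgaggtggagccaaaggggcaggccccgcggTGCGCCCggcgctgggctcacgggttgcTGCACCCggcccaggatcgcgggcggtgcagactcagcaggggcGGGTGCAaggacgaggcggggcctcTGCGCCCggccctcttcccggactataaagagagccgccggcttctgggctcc
Within the 300 bases of the table, which reach 50 bases past the start, MT2A and MT1H had 8 matches each, MT1X had 4 and MT4 had 3. At least 1 match was present in 29.6% of all 35116 promoters in the table, at least 3 in 2.30%, at least 4 in 0.601% and at least 8 in 0.0199%, or 7 promoters. In MT2A, 7 of the 8 matches lay in the printed part. The TATA box, searched as TATAAA on both strands, was found in MT4, MT2A and MT1X and in 11.5% of all promoters, and these letters were not in the MT1H window. The GC box, searched as GGGCGG on both strands, was found 2 times in MT2A and in MT1X and 1 time in MT1H, against at least 1 time in 45.0% of all promoters. In MT1X, 1 MRE match overlapped a match to the GC box or the TATA box, and in MT4, MT2A and MT1H there was no such overlap. A match is a stretch of letters in the reference and not a measured site.

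G4 motifs were searched because PDS binds G4 structures. A motif needed 4 runs of 3 or more G, separated by 1 to 7 bases, on either strand. The 6 motifs closest to metallothionein starts inside loop anchors are printed with the runs of G in capitals, 5′ to 3′ on the strand that carries them.
MT1G upstream (chr16:56668123-56668143, - strand): GGGtgcaaGGGcGGGGcGGGG
MT1H upstream (chr16:56669731-56669751, + strand): GGGtcGGGtgcaaGGGtGGGG
MT1F upstream (chr16:56657640-56657661, + strand): GGGGcGGGGccGGGGGGcGGGG
MT1F exon (chr16:56657730-56657749, + strand): GGGaaGGGcGGGcaggaGGG
MT1E intron (chr16:56625897-56625921, - strand): GGGctGGGaaatGGGGattccaGGG
MT1M intron (chr16:56632774-56632800, - strand): GGGaaatGGGattcctaGGGcgcaGGG
The midpoint of the first lay 68 bases upstream of the MT1G start, and that of the second 73 bases upstream of the MT1H start. The pair at MT1F lay 309 and 220 bases upstream of the canonical start, the latter in an exon of another MT1F transcript. In MT1E and in MT1M the motif lay in an intron, 128 bases downstream of the start in both genes. The MT1G, MT1H, MT1E and MT1M motifs each overlapped 1 MRE match, and the motifs at MT1F overlapped none. A G4 motif was present in 25% of the promoters in the table, and of the 4 printed above only MT1H had one.

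Several facts of the whole series bear on these values. The mock list held 254647 PETs and the PDS list 67001. These are sums over listed loops, not library depths, which were not given. The lowest count was 3 PETs in both lists, so a loop missing from a list may have had up to 2. A promoter loop means a loop with an anchor within 1 kb of any transcript start of a gene. In the mock list, 9 of 10 hepatocyte marker genes had a promoter loop, with 13 loops at ALB and 13 at HNF4A and none at APOA1, which had 1 in the PDS list. Over all protein-coding genes, 59.8% had a promoter loop in the mock list. Among blood cell markers, CD3E had 2 loops, and HBB, PTPRC and SPI1 had none. Of 3 fibroblast markers, COL1A1 had 4 loops, and COL1A2 and PDGFRB had none, though PDGFRB had 1 in the PDS list. Because there was 1 list per condition, there was no spread between replicates, no test between the conditions could be made, and all intervals given are 95% intervals of counting error only.

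Loops at the cluster were fewer after PDS treatment, and their PETs were fewer as well. The 16 mock loops carried 55 PETs and the 8 PDS loops carried 30. The PDS/mock ratio of loop numbers was 0.5 (0.219 to 1.14), and that of PETs was 0.545 (0.351 to 0.848). Divided by the PET total of each list, the ratio of PETs was 2.07, so its direction depends on the scaling, and without library depths neither scaling can be preferred. Of the 16 mock loops, 5 were also in the PDS list and 11 were missing from it. Across the genome, 89.0% of mock loops were missing from the PDS list. Of the 8 PDS loops, 3 were missing from the mock list, against 60.9% of all PDS loops. The window edge was not far from other loops: the nearest mock loop outside it lay 2.088 kb downstream, inside NUP93, with 3 PETs, and the outermost mock loops inside it had 4 PETs upstream and 3 downstream.

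**Figure D1:**
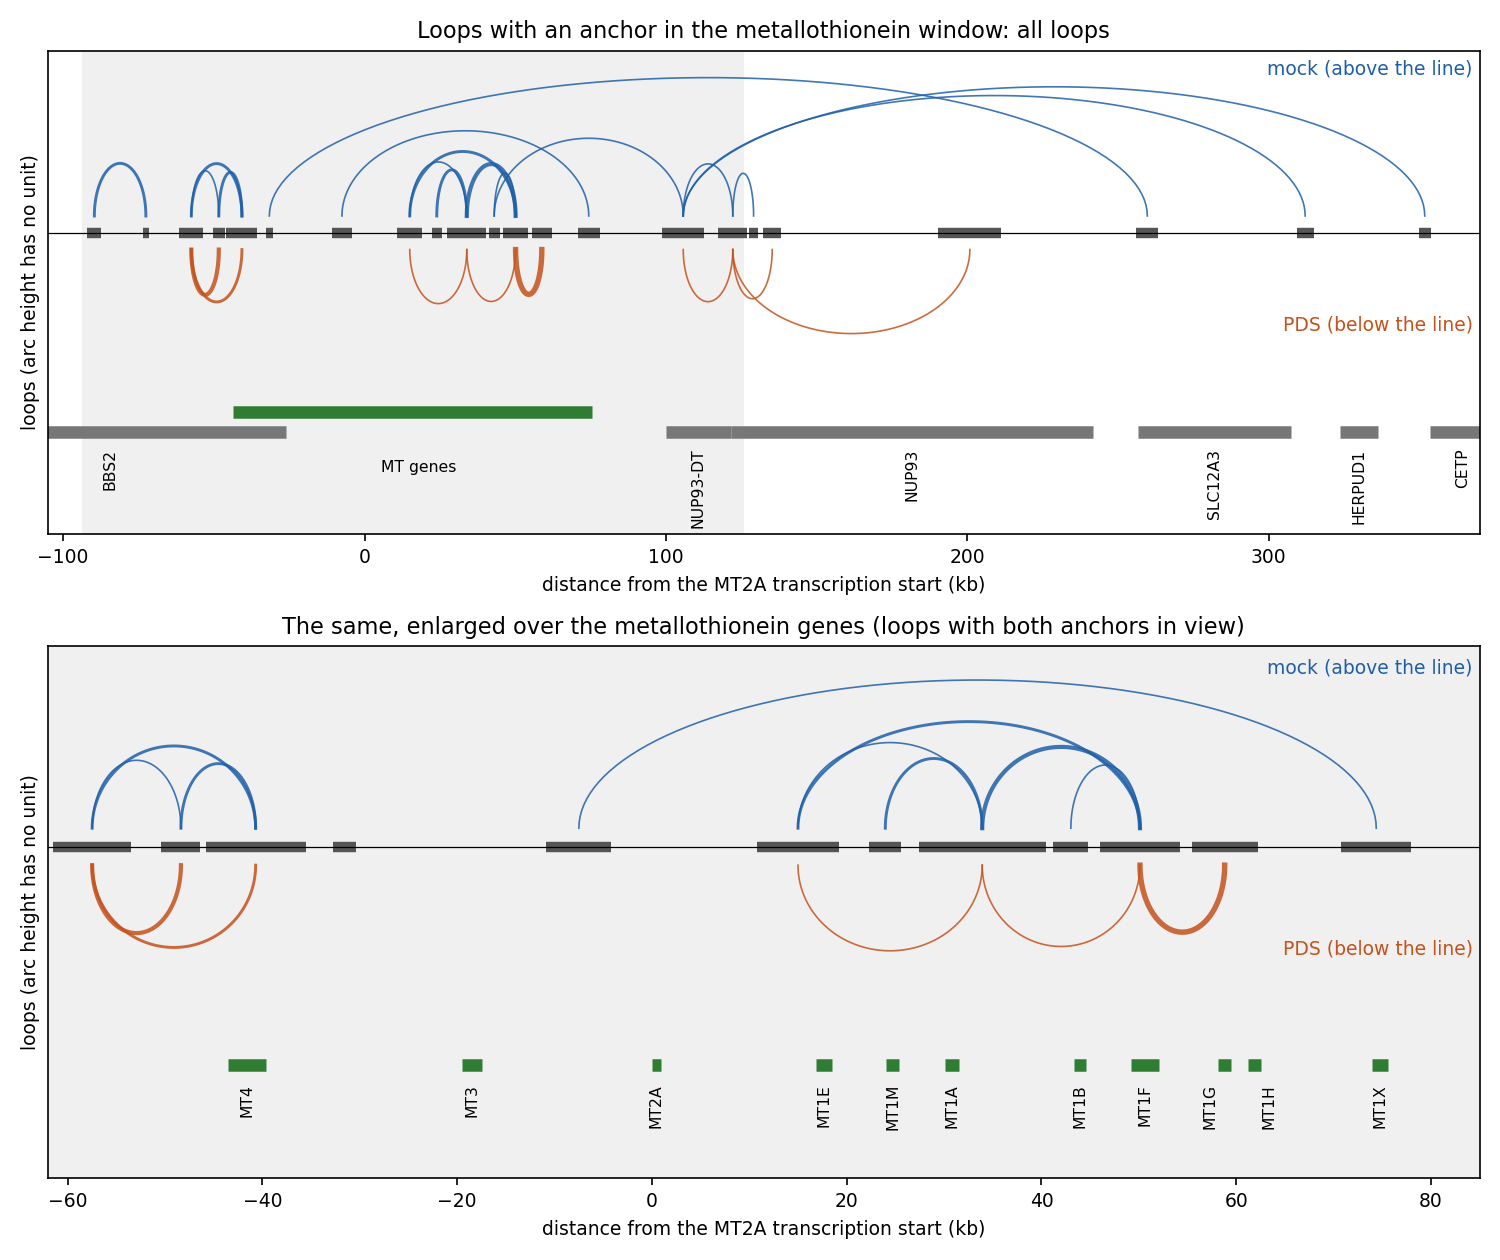
Loops at the metallothionein window, plotted against distance from the MT2A transcription start in kb, with mock loops above the line and PDS loops below it. Line width grows with the PETs of a loop, arc height has no unit, dark bars on the line are anchors, green bars are metallothionein genes, grey bars are other genes, and the shaded area is the window; the 3 loops over 200 kb are mock loops, and the thickest arc is the PDS loop from MT1F to MT1G and MT1H.

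Anchors that hold promoters of MT1 genes were joined to each other. Among loops with a metallothionein promoter, this kind numbered 5 against 4 of the other kind in the mock list. In the PDS list it was 3 against 1. From MT1E to MT1X every anchor of a listed loop held a metallothionein promoter, so loops among these anchors could only be of this kind. In mock-treated cells 5 loops joined a pair of anchors that each held a metallothionein promoter, with 19 PETs in all, and in PDS-treated cells there were 3, with 12 PETs. Of these loops, 2 were in both lists. They spanned 7.10 to 35.1 kb.

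The strongest mock loop of the window joined MT1A and MT1F over 16.2 kb. It had 5 PETs in mock-treated cells (exact Poisson interval 1.62 to 11.7) and 3 after PDS treatment (0.619 to 8.77). These intervals overlap over most of their length. MT1E was joined to MT1A over 18.9 kb by 3 PETs in either list, so this loop was listed at the same strength.

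The remaining mock loops between metallothionein promoters were missing from the PDS list. MT1E was joined to MT1F over 35.1 kb by 4 PETs. MT1M was joined to MT1A over 9.95 kb by 4 PETs, and this was the only loop of MT1M. MT1B was joined to MT1F over 7.10 kb by 3 PETs. Up to 2 PETs are possible for each of them after PDS treatment, and 2 lies within the exact Poisson intervals of 4 PETs (1.09 to 10.2) and of 3.

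The strongest PDS loop of the window was in the PDS list only. It joined the MT1F anchor to an anchor that holds the promoters of both MT1G and MT1H, 8.70 kb away, with 6 PETs (exact Poisson interval 2.20 to 13.1). In the mock list the anchor at MT1G and MT1H had no loop at all. Since a missing loop may have had up to 2 PETs, the PDS/mock ratio was at least 3, with an interval of 0.693 to 13 when 6 is set against 2, so an increase was not resolved at this depth. Among the 692 PDS loops of this strength or more (6 PETs) in the series, 139 were missing from the mock list, or 20.1%, and on chromosome 16 it was 14 of 68. When the anchors of both lists were extended by 5 kb on either side, a neighbouring mock loop did match this PDS loop. Mock loops within this reach included MT1B to MT1F, which joins a different pair of promoters, so the match is not the same contact. Both G4 motifs printed above for MT1G and MT1H lie in the anchor that these genes share.

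Of the 5 loops present in both lists, 1 had fewer PETs after PDS treatment, 3 had the same number and 1 had more. Over all 7333 loops present in both lists, 55.3% had fewer PETs after PDS treatment and 14.6% had more. The loop with fewer was MT1A to MT1F. The loop with more lay upstream of MT4, between a pair of anchors in the body of BBS2, a subunit of the complex that carries membrane proteins to cilia. It spanned 9.11 kb, with 3 PETs in mock-treated cells and 5 after PDS treatment. Both of its anchors lay upstream of the canonical start of BBS2.

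**Figure D2:**
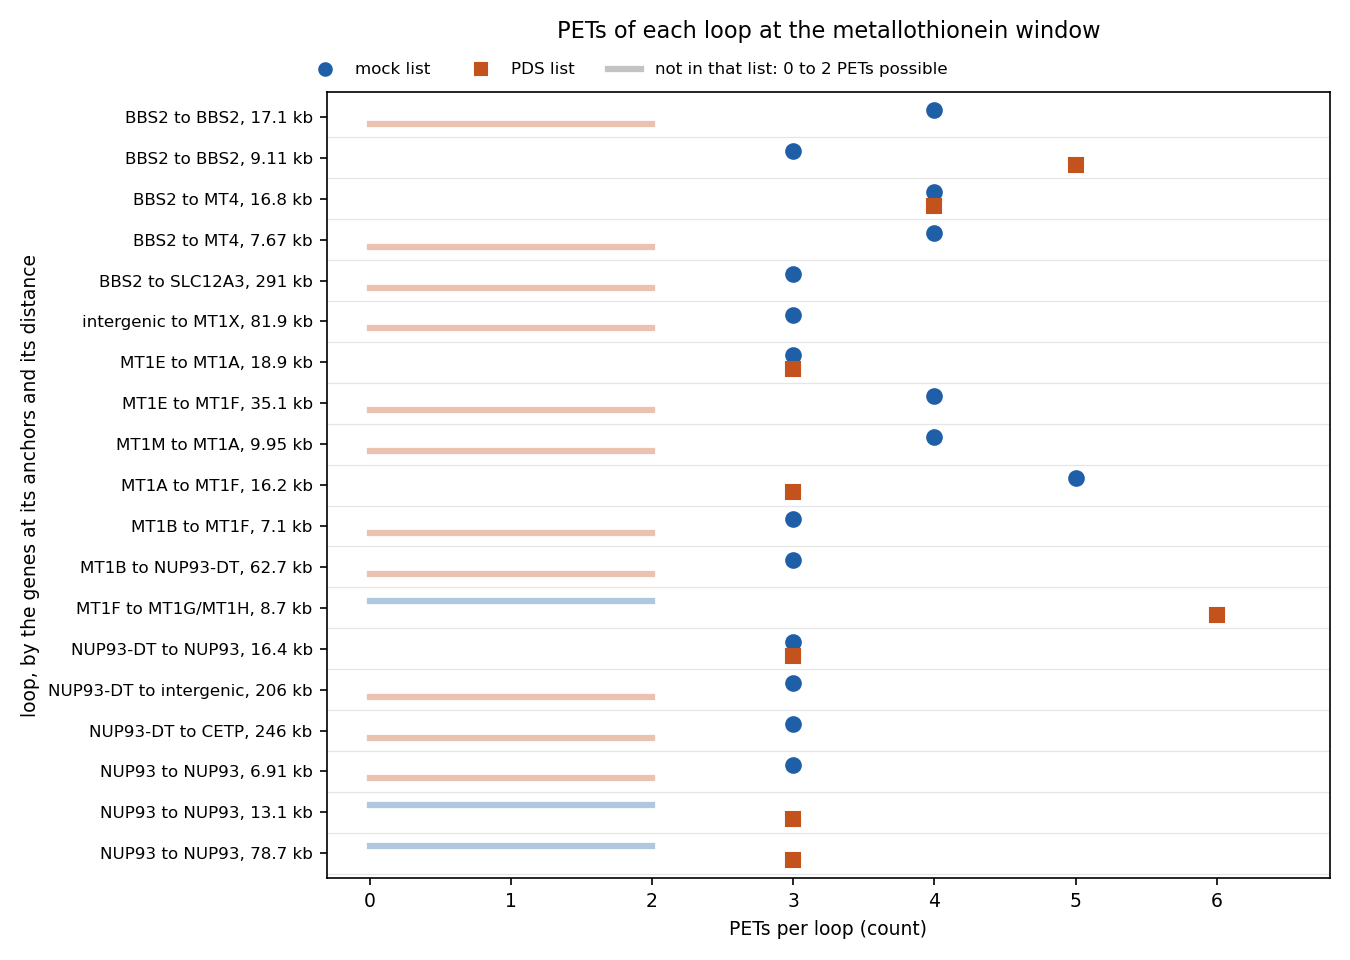
PETs of the 19 loops of the window, in the order of the chromosome, as circles for the mock list and squares for the PDS list. A pale bar from 0 to 2 marks a loop that is not in that list; the highest count is the 6 PETs of the PDS loop from MT1F to MT1G and MT1H, and 3 of the 5 loops present in both lists have equal counts.

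Loops from a metallothionein promoter to something other than a metallothionein promoter numbered 4 in mock-treated cells, with 14 PETs, and 1 after PDS treatment, with 4 PETs. MT4, which sits inside the long annotated body of BBS2 on the opposite strand, was joined to a BBS2 anchor 16.8 kb away by 4 PETs in either list. A second MT4 loop, to a BBS2 anchor 7.67 kb away, had 4 PETs in the mock list and was missing from the PDS list. Both of these BBS2 anchors lay in the long annotated body of BBS2, but upstream of its canonical start. MT1X was joined to an intergenic anchor between MT3 and MT2A, 81.9 kb away, by 3 PETs in the mock list only. MT1B was joined over 62.7 kb by 3 PETs, in the mock list only, to an anchor in NUP93-DT, a long non-coding RNA gene upstream of the nucleoporin gene NUP93.

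The other 7 mock loops and 4 PDS loops of the window had no metallothionein promoter in either anchor, and they show which neighbours the flanks reach. The promoter of BBS2 was joined to another BBS2 anchor over 17.1 kb by 4 PETs in the mock list and not in the PDS list. That anchor lies in the long annotated body of BBS2, but upstream of its canonical start. The NUP93-DT anchor was joined to the NUP93 promoter over 16.4 kb by 3 PETs in either list. NUP93 encodes a scaffold protein of the nuclear pore, and 3 further loops ran from its promoter into its own body. The first spanned 6.91 kb and was in the mock list only. Those of 13.1 and 78.7 kb were in the PDS list only, and each of these 3 loops had 3 PETs. The far anchor of the 13.1 kb loop also lay within 1 kb of another, non-canonical transcript start of NUP93.

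The longest loops of the window reached genes downstream of NUP93 and had 3 PETs each, in the mock list only. A BBS2 anchor between MT4 and MT3, upstream of the canonical BBS2 start, was joined over 291 kb to the promoter of SLC12A3. SLC12A3 encodes the thiazide-sensitive sodium chloride cotransporter of the kidney. The NUP93-DT anchor was joined over 246 kb to the promoter of CETP, which encodes the cholesteryl ester transfer protein of plasma. It was also joined over 206 kb to an intergenic anchor that began 1984 bp past the end of SLC12A3 and lay 8657 bp short of HERPUD1, a gene of the endoplasmic reticulum stress response. Loops over 200 kb were thus 3 of 16 in mock-treated cells and 0 of 8 after PDS treatment, against 5.68% and 6.0% of all loops in the 2 lists. None of the 3 had a metallothionein promoter in an anchor.

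Read by gene, 6 of the 10 members had a promoter loop in each list, and MT4, MT1E, MT1A and MT1F had one in both. Over all protein-coding genes it was 59.8% in the mock list and 28.7% in the PDS list. Because the loops between metallothionein promoters count at both ends, the members' loops are not independent of each other. All 6 members with a mock loop had fewer after PDS treatment, as did 90.7% of all genes with a mock promoter loop. MT1G and MT1H had a loop in the PDS list only, and they share it. Over all 20033 protein-coding genes, 521 had a promoter loop in the PDS list only.

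MT1A and MT1F stood at the top in mock-treated cells, with 3 loops and 12 PETs each (6.20 to 21.0). After PDS treatment MT1F had 2 loops and 9 PETs (4.12 to 17.1). MT1A then had 2 loops and 6 PETs (2.20 to 13.1). MT1A lies in a wide anchor of 13035 bp that also overlaps the metallothionein pseudogenes MT1JP, MT1DP and MT1CP, so its loops cannot be assigned to MT1A alone.

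MT4 had 2 mock loops with 8 PETs (3.45 to 15.8) and 1 PDS loop with 4 (1.09 to 10.2). MT1E had 2 mock loops with 7 PETs (2.81 to 14.4) and 1 PDS loop with 3 (0.619 to 8.77). MT1M had 1 mock loop with 4 PETs and MT1X had 1 with 3 PETs, and neither had a PDS loop. MT1B, outside the list of members, had 2 mock loops with 6 PETs and none after PDS treatment. The intervals of neighbours in this order overlap in both lists, and for every promoter with loops in both lists the mock and PDS intervals overlap too.

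MT2A and MT3 had no promoter loop in either list. The nearest anchor of any loop lay 4175 bp from the MT2A start and 8229 bp from the MT3 start, and it was the same intergenic anchor, the one joined to MT1X. The promoter with as many MRE matches as MT1H, that of MT2A, thus lay in no anchor of a listed loop. It did lie between the 2 anchors of the MT1X loop. A count below 3 PETs cannot be seen in these lists, so this is not a measured absence of contact.

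**Figure D3:**
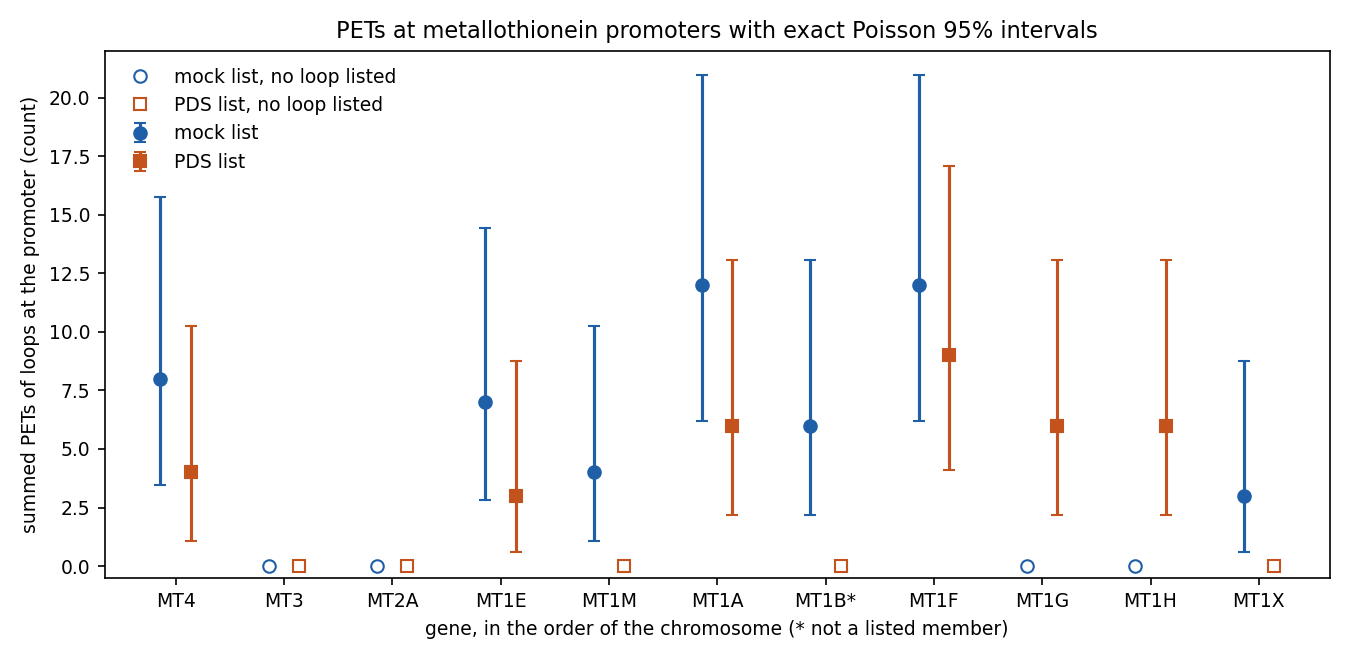
Summed PETs of the loops at each metallothionein promoter, for the mock list (circles) and the PDS list (squares), with exact Poisson 95% intervals. Open symbols at 0 mark promoters with no listed loop; MT1A and MT1F are highest in the mock list with 12 PETs each, MT1G and MT1H have PETs in the PDS list only, from a loop they share, and MT2A and MT3 have none.

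The fall in loops at the cluster was set beside that elsewhere, as a description without a test. The PDS/mock ratio of loop numbers was 0.283 (0.278 to 0.287) over the whole series and 0.316 (0.298 to 0.335) on chromosome 16 outside the window, and the interval at the cluster covers both. The ratio of PETs was 0.263 over the whole series and 0.344 (0.335 to 0.353) on the rest of chromosome 16. The interval at the cluster, 0.351 to 0.848, lies above the first and overlaps the second, and PETs of 1 loop are not independent counts. On the rest of chromosome 16, the highest loop held 2183 of 20530 PETs in the mock list and 1753 of 7060 in the PDS list. The ratio of PETs there, and so this overlap, depends in part on such loops, and it was not computed without them. As a further comparison, a pair of liver gene families on other chromosomes was taken. The SERPINA cluster, which encodes secreted protease inhibitors, had 43 mock loops and 10 PDS loops, a ratio of 0.233 (0.118 to 0.457). The albumin family had 18 and 4, a ratio of 0.222 (0.0788 to 0.626). For loop numbers both intervals overlap that of the metallothionein cluster. For PETs they do not: the ratio was 0.199 (0.136 to 0.290) at the SERPINA cluster and 0.183 (0.106 to 0.315) at the albumin family, both below the interval at the metallothionein cluster. These intervals treat PETs as independent counts, and no test of the difference was made.

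**Figure D4:**
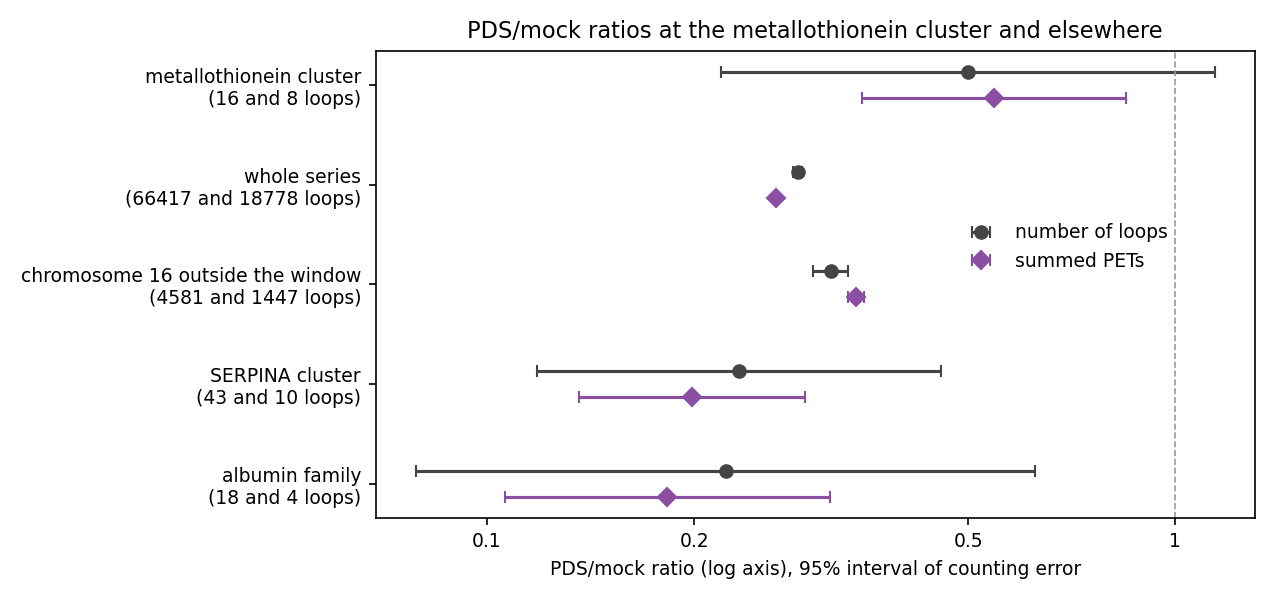
PDS/mock ratios of loop numbers (circles) and of summed PETs (diamonds) with 95% intervals of counting error, on a log axis. At the metallothionein cluster both ratios are the highest plotted, 0.5 and 0.545, and its interval for loop numbers overlaps those of the 4 other groups, whereas its interval for PETs overlaps that of the rest of chromosome 16 and lies above those of the whole series, the SERPINA cluster and the albumin family. On the rest of chromosome 16, the highest loop held 2183 of 20530 mock PETs and 1753 of 7060 PDS PETs.

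The share of mock loops found again after PDS treatment was 31.25% at the cluster (14.2 to 55.6%). It was 20% there with 100 kb on either side of the genes, and 16.7% when loops of at least 4 PETs were taken in both lists. The MT1A to MT1F loop, with 3 PETs after PDS treatment, then no longer counted as found again. Over loops of 3 or more PETs, the share was 14.6% on chromosome 16 outside the window and 11.0% over the whole series. The share depended on the strength of a loop over the whole series, from 5.97% at 3 PETs to 11.7% at 4 and 18.3% at 5. At the cluster it was 3 of 10 loops at 3 PETs, 1 of 5 at 4 PETs and 1 of 1 at 5 PETs. These shares by strength count a PDS loop of any listed PET count. Mock loops of the cluster had a highest count of 5 PETs and a mean of 3.44. Over the whole series the mean was 3.83, with a highest count of 2183. Loops with 3 PETs were 62.5% of mock loops at the cluster and 59.9% over the whole series. In the PDS list the mean was 3.75 at the cluster and 3.57 over the whole series.

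With regard to G4 motifs, 12 of the 19 anchors of mock loops at the cluster held at least 1, or 63.2% (41.0 to 80.9%), against 48.2% of all mock anchors. Anchors differ in width, from 1913 to 20972 bp at the cluster, and per kb the cluster had 0.184 motifs against 0.224 over all mock anchors. Of the 8 anchors with a metallothionein promoter, 5 held a motif, namely those of MT1E, MT1M, MT1A, MT1F and the shared anchor of MT1G and MT1H, while those of MT4, MT1B and MT1X held none. A motif in at least 1 anchor was found for 15 of the 16 mock loops, of which 5 were found again after PDS treatment. The 1 loop without a motif, from MT4 to the BBS2 anchor 7.67 kb away, was not. Of the 7 mock loops with a motif in both anchors, 3 were found again. Over the whole series, loops were found again in 9.5% of cases without a motif, in 11.5% with a motif in at least 1 anchor and in 13.1% with motifs in both.

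MRE matches were more frequent in these anchors than in mock anchors at large. The 8 anchors with a metallothionein promoter had 2.04 matches per kb and the 19 mock anchors of the cluster had 1.53, against 0.894 over all mock anchors. The highest values were 2.94 per kb in the anchor of MT1G and MT1H and 2.82 per kb in that of MT1F, the pair joined by the strongest PDS loop. The median GC content was 49.4% in the anchors with a metallothionein promoter and 43.0% over all mock anchors, and its part in these values was not tested.

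**Figure D5:**
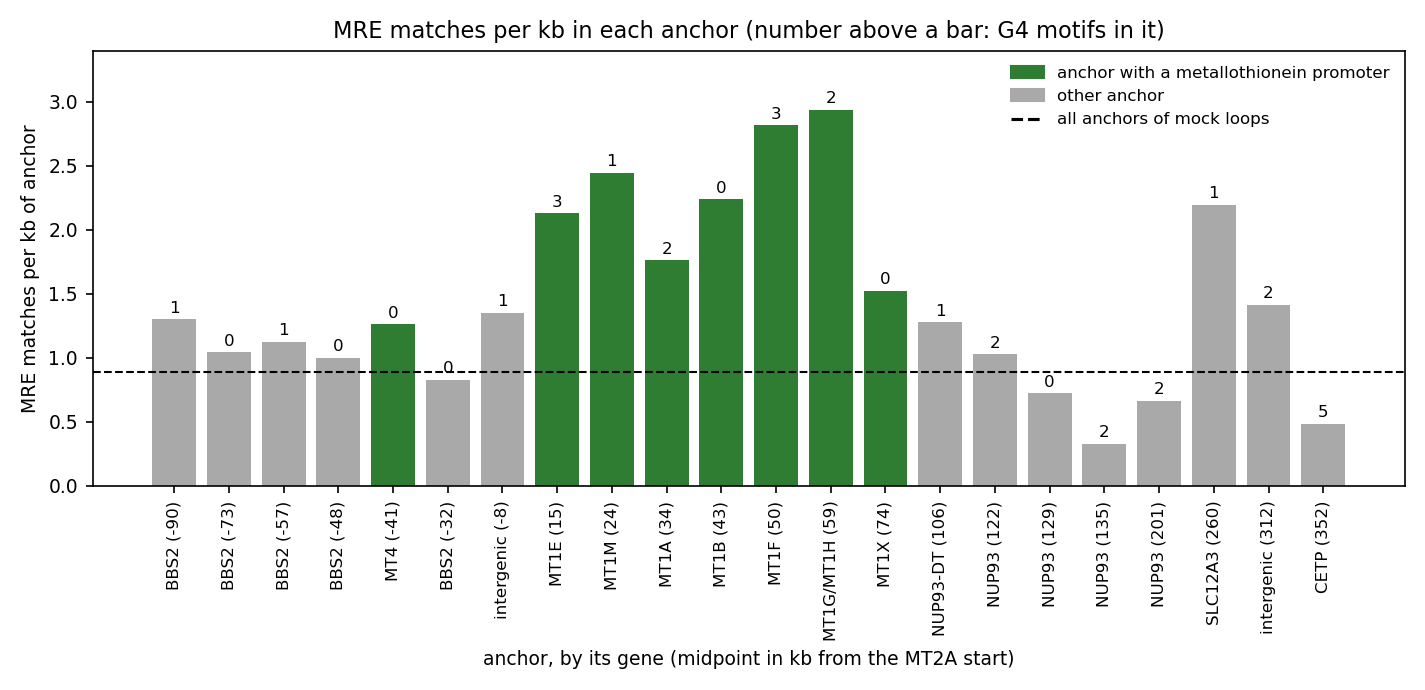
MRE matches per kb in the 22 anchors of the window's loops, in the order of the chromosome, with green bars for anchors that hold a metallothionein promoter and the number of G4 motifs above each bar. The dashed line is the value over all mock anchors, 0.894. All 8 green bars lie above it, with the highest at MT1F and at MT1G and MT1H. Most grey bars lie above it too, the highest at SLC12A3 with 2.20.

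Metallothionein genes resemble each other in sequence, and reads from near-identical stretches cannot be placed. Of the 31-base sequences in the MT1E anchor, 26.7% occurred more than once in the genome, and 4.74% more than once within the window. The genome-wide share was 19.4% for MT1M, 16% for the anchor of MT1G and MT1H, 8.11% for MT1F and 5.20% for MT1A. Within the window it was 15.2% for MT1M, 14.1% for the anchor of MT1G and MT1H, 2.18% for MT1F and 4.72% for MT1A. Anchors without a metallothionein promoter had genome-wide shares from 3.19% to 22.7%, so such shares were not particular to metallothionein anchors. Reads were 100 bp long, so these shares of 31-base sequences are not shares of reads that cannot be placed. The part of repeated sequences in the PET counts was not tested.

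Other genes of metal handling were taken as a list of 37, which holds MTF1, zinc and copper transporter families, copper chaperones, SOD1, CP, ferritin genes and heme oxygenase. Of these, 27 had a promoter loop in the mock list (73.0%) and 10 in the PDS list (27.0%), against 59.8% and 28.7% of all protein-coding genes. Their promoter loops numbered 98 and 15. Of the 27 genes, 26 had fewer loops after PDS treatment, 1 had as many and 0 had more, and the share with fewer was 90.7% over all genes with a mock promoter loop. The summed ratio was 0.153, against 0.246 over all protein-coding genes and 0.667 over the 10 metallothioneins, which counts loops between members at both ends.

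MTF1, which encodes the metal-sensing activator, had 1 mock loop with 3 PETs and none after PDS treatment. SLC30A1, which encodes the zinc exporter of the plasma membrane and is itself a known MTF1 target, had 4 loops with 12 PETs and then none. Of the zinc importers, SLC39A14 went from 7 loops with 32 PETs to none, SLC39A10 from 8 loops to 1 and SLC39A11 from 10 to 2, while SLC39A2 had 2 in either list. The largest number was at SLC30A3, a zinc transporter of vesicles, with 14 mock loops and 4 PDS loops. CP, which encodes the plasma copper protein ceruloplasmin, went from 10 to 1. ATP7B, the copper pump of hepatocytes, went from 6 to 1. FTH1 and FTL, the ferritin chains, went from 4 to 1 each. HMOX1, which encodes heme oxygenase, went from 3 to none. None of these genes gained a loop, and MT1G and MT1H were the only metallothionein or metal handling genes listed here with a loop in the PDS list alone. Over all 20033 protein-coding genes, 521 had a promoter loop in the PDS list alone. Of the 11987 with a mock promoter loop, 154 had more after PDS treatment.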

How the data were processed

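POLR2A HiChIP-seq data of HepG2 cells (mock or 20 µM PDS, 24 h, 2 replicates each, 4 libraries) were used as 2 deposited loop lists. The authors deposited whole-number counts of PETs per loop, with no scaling. Reads of 100 bp had been aligned to GRCh38 and assigned to MboI fragments with HiC-Pro 3.1.0, according to the paper and the submitters' processing notes. The loop caller and the way replicates were combined are not given in the sources used here.

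The members and lists were chosen with earlier results of these data known. The named genes were the 10 members, genes with a promoter or body in an anchor of their loops, pseudogenes there and the metal handling list. Loops in both lists had overlapping anchors at both ends (at least 1 bp), which here were identical anchors. Distances are between anchor midpoints. Ratio intervals derive from Wilson intervals of the PDS share, shares have Wilson intervals, and summed PETs have exact Poisson intervals (scipy 1.17.1). PETs are PCR-amplified reads, so intervals cover counting error only. Gene positions were from GENCODE 44, and promoters from RefSeq (GRCh38.p14). Of 81742 anchors, 81739 began at GATC, the MboI site, on the reference used. Matching, motif and 31-base searches were tested on simulated data. Alternatives covered other windows, PET minimums, matching rules, scaling and motif spacers. No table of proteins was used. The result for 1 marker gene is not reported here. Tools were Python 3.11.15, pandas 2.3.3, numpy 2.4.6, pysam 0.24.0, samtools 1.23.1 and matplotlib 3.10.9.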

Additional observations from a re-analysis of the deposited data

How the results depend on the processing

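Of 36 values computed under alternative settings, 21 stayed within 1.5 times the reported count or within the reported interval. Most loops at the cluster had 3 PETs, which limits every statement on single loops.

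With gene bodies only, the cluster had 8 mock and 4 PDS loops. With 100 kb on either side it had 30 mock loops, the PDS/mock ratio of PETs was 0.330, and 20% of mock loops were found in the PDS list. With at least 4 PETs required in both lists, 6 mock and 3 PDS loops were left, and 16.7% of these mock loops were among these PDS loops. With at least 5 PETs, 1 mock and 2 PDS loops were left. The 1 mock loop, MT1A to MT1F, was not among these PDS loops (0%), since it had 3 PETs after PDS treatment. The PDS/mock ratio was 2 for loops and 2.2 for PETs, the opposite direction. These ratios rest on 3 loops. With PETs divided by the PET total of each list, the ratio of PETs was 2.07, also the opposite direction, since the ratio at the cluster, 0.545, lay above that of the list totals, 0.263.

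With the anchors of both lists extended by 5 kb on either side, 62.5% of mock loops at the cluster matched a PDS loop. The share was 32.5% over the whole series and 41.4% on the rest of chromosome 16. The share of anchors with a G4 motif was 84.2% with spacers of 1 to 12 bases and 26.3% with spacers of 1 to 3.

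No paired analysis was possible because the replicates were combined into 1 list per condition. Leaving out each replicate was not run for the same reason.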
